A study of Mus musculus with 6 samples.

Results

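Expression of 9 genes that mark the fibroblasts of the meninges was followed in coronal mouse brain sections: Ptgds, Myoc, Efemp1, Slc22a6, Slc6a20a, Fmod, Mgp, Dcn and Igf2. They were taken by symbol, with no measured value in the rule, and all 9 were found among the 19465 genes counted. They and the marker lists used below were, however, chosen with earlier results of these data known. The sections came from male C57BL/6J mice with no transgene or treatment, 2 mice each at postnatal day 21 (P21), at 12 to 15 weeks (adult) and at 28 months (aged), and 1 hemisection per mouse was counted on a Visium slide, where RNA is read in spots that each cover a few cells. P21 and adult sections were laid directly on v1 slides, whereas aged sections were stained on glass and passed to v2 slides in a CytAssist instrument, with a probe design that the methods describe as improved. Every difference between aged and adult sections reported here is therefore also a difference between slide versions, and the 2 cannot be told apart.

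The meninges are layers of connective tissue that wrap the brain, and their pial and arachnoid fibroblasts secrete collagen and proteoglycans, carry solutes between blood and cerebrospinal fluid and make signals such as retinoic acid. Sheets of the same cells follow large vessels and the stroma of the choroid plexus into the brain. Several of the genes are also used by other brain cells, for example Ptgds by oligodendrocytes and Mgp by vascular smooth muscle.

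After spots with few genes or UMIs were left out, 20336 spots remained, with 42422997 to 106783660 UMIs (unique molecular identifiers, counts of captured molecules) per section. Levels were summed over spots and scaled to 1000000 UMIs (CPM). Spots that touch the outside of the tissue were called the border (176 to 212 spots and 2045554 to 2948784 UMIs per section) and spots at least 4 steps from the outside were called inside (2354 to 3143 spots per section). The border holds cut edges as well as the brain surface, and the labels do not tell them apart. Its make-up differed between sections: the summed level of 12 oligodendrocyte markers at the border was 18458 and 18078 CPM at P21, 12502 and 20758 in the adult and 3293 and 4649 in the aged sections, and that of 14 choroid plexus markers was 6098 CPM in P21 section 2 and 8277 in aged section 1 against 455 to 2510 in the other 4. The part of these differences in the results for the border was not tested. The genes were set beside 38 other genes known from meningeal fibroblasts, none of which was at 0 at the border of any section. Their summed levels were 2065 to 2846 CPM there against 775 to 986 CPM inside. A few of them held much of the inside sum. In P21 section 1, Ccn3 was at 137, Igfbp5 at 137 and Zic1 at 122 of 965 CPM. Which cells gave the inside sum was not tested. A level above 0 cannot test the label of the genes, since no oligodendrocyte, astrocyte or neuron marker was at 0 at any border either.

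On GRCm38, in the GENCODE vM21 annotation, Ptgds lies on chromosome 2 (25466709 to 25470046, minus strand), Myoc on chromosome 1 (162639155 to 162649693, plus strand), Efemp1 on chromosome 11 (28853204 to 28926743, plus), Slc22a6 on chromosome 19 (8618039 to 8628299, plus), Slc6a20a on chromosome 9 (123634770 to 123678885, minus), Fmod on chromosome 1 (134037254 to 134048277, plus), Mgp on chromosome 6 (136872435 to 136875823, minus), Dcn on chromosome 10 (97479609 to 97518143, plus) and Igf2 on chromosome 7 (142650766 to 142666816, minus). Myoc, Slc6a20a and Igf2 overlap other annotated genes, and Slc6a20a has a close paralog, Slc6a20b, whose level was at most 2.90 CPM at any border.

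RefSeq promoters were found for 7 of the 9 genes; Mgp and Dcn are not in the table. The 250 bases before the annotated start are printed for Myoc, Slc22a6 and Fmod, the genes with the greatest falls inside aged sections, to set their sequences side by side. Capitals mark matches, on either strand, to the TATA box written TATAAA, to the CCAAT box written by its name, to the GC box written GGGCGG, to the AP-1 site written TGACTCA, to the nuclear receptor half-site written AGGTCA, to the forkhead core written TGTTTAC and to the E-box written CACGTG. Overlapping matches were counted apart.
Myoc, GRCm38.p6 chr1:162638900-162639149, plus strand: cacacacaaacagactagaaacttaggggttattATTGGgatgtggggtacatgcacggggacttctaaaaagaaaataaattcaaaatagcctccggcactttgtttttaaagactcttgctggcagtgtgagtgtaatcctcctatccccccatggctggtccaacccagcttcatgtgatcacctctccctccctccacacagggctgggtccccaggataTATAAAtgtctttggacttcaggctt
Slc22a6, GRCm38.p6 chr19:8617746-8617995, plus strand: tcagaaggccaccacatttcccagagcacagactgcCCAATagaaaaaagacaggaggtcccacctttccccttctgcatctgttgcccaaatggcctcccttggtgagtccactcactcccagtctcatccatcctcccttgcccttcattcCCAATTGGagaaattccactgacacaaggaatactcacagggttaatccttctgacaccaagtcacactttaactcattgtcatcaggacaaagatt
Fmod, GRCm38.p6 chr1:134037004-134037253, plus strand: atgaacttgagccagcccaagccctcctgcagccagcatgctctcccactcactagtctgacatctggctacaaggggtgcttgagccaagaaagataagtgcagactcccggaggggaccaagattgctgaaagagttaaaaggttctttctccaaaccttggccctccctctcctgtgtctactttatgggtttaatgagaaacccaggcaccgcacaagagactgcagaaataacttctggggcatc
The Myoc window held a TATA box that begins 26 bases before the start and 1 CCAAT box on the reverse strand. The Slc22a6 window held 3 CCAAT boxes, of which 2 overlap on opposite strands, and the Fmod window held none of the 7 motifs. TATAAA occurs in 12.4% and CCAAT in 33.8% of 32851 RefSeq promoter windows of this length, and no motif was found in all 3 windows. The other windows differed too, with an AP-1 site (4.46% of all windows) in Ptgds and a GC box (32.7%) in Efemp1 and Slc6a20a.

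All 9 genes were higher at the border than inside in each of the 6 sections, and all 9 passed the test. A gene was called at a Benjamini-Hochberg adjusted p under 0.05 over all genes and a fold change over 1.5 in edgeR's quasi-likelihood test, here with the section as a block, and 9.45% of 14268 genes were called higher at the border (11.0% in either direction). By comparison, 19.8% of these genes had a border level above the inside level in all 6 sections. The median log2 fold change of the 9 genes was 2.85, against −0.02 over all genes. As the 9 were chosen with earlier results of these data known, the counts and the median are a description and not an independent test. Slc22a6, an organic anion transporter, had the greatest log2 fold change, 4.23 (standard error 0.43, adjusted p = 4.7e-05), followed by Fmod with 4.14, Myoc with 3.51 and Ptgds with 3.32. Efemp1 had the least, 2.11 (standard error 0.14, adjusted p = 5.8e-06). In spots that hold several cells, fewer cells of a type and less RNA per cell cannot be told apart.

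**Figure D1:**
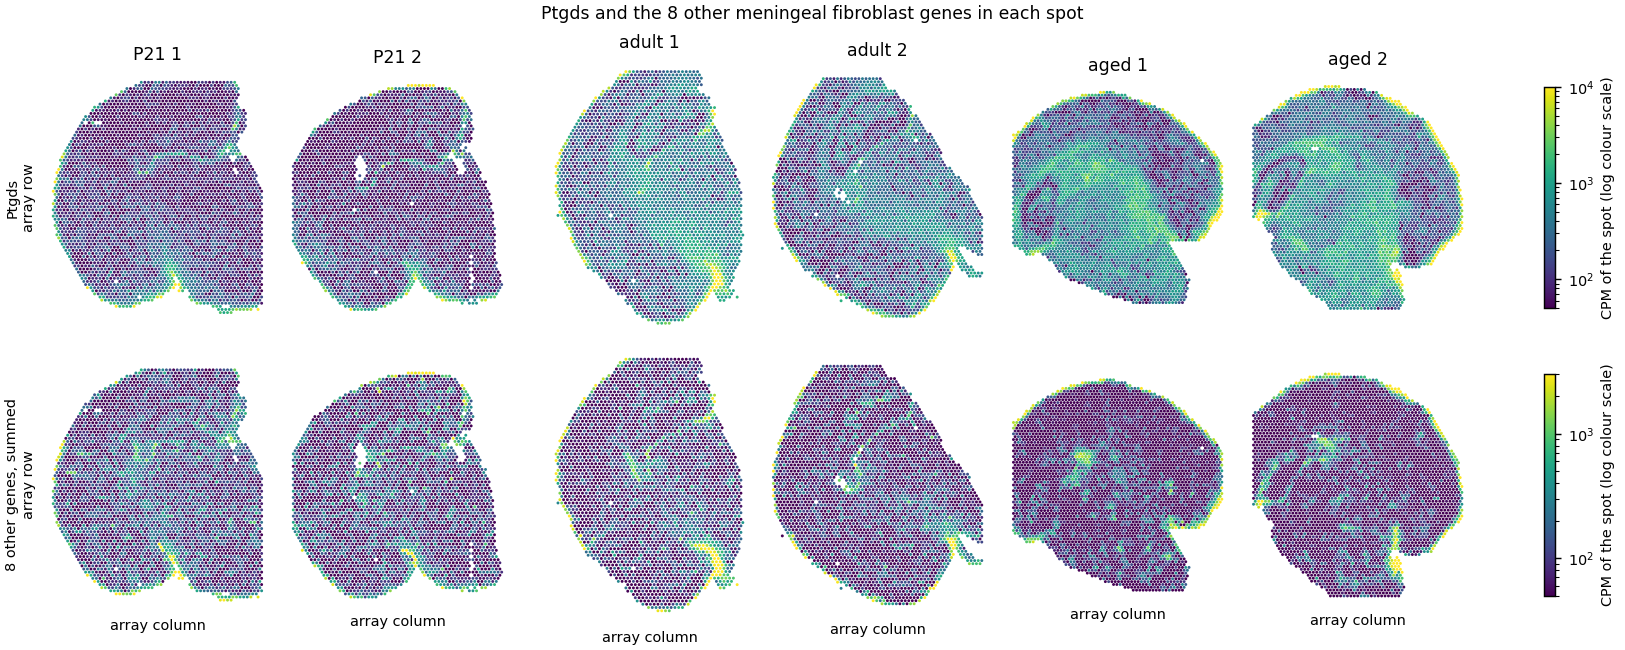
Each dot is a spot at its place on the array (array column against array row, 6 sections from left to right), coloured by the CPM of Ptgds in the spot (upper row) or of the other 8 genes summed (lower row) on log colour scales that are capped at both ends. High spots trace the outer edge and clefts that cut into the tissue, and Ptgds is also raised across much of the interior of adult and aged sections but not of P21 sections.

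The fall from the border was steep. Myoc in adult section 2 went from 280 CPM at the border to 45.1 CPM in the next row of spots and 17.4 CPM in the row after. Ptgds in aged section 2 went from 5187 to 891 and then 349 CPM over the same rows. Deep in the tissue Igf2 turned up again, and at 15 or more steps from the outside it was at 35.8 and 31.3 CPM at P21, 53.5 and 28.4 in the adult and 47.1 and 36.2 in the aged sections, each above the level of 10 to 14 steps in the same section (9.48 to 24.9 CPM). Adult section 1 stood apart at 4 to 6 steps, where Fmod was at 31.1 CPM against 7.38 CPM in adult section 2 and 2.51 to 11.4 CPM in the other 4. In the map of adult section 1 a band of high spots at the lower right lies within the outline of the tissue.

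**Figure D2:**
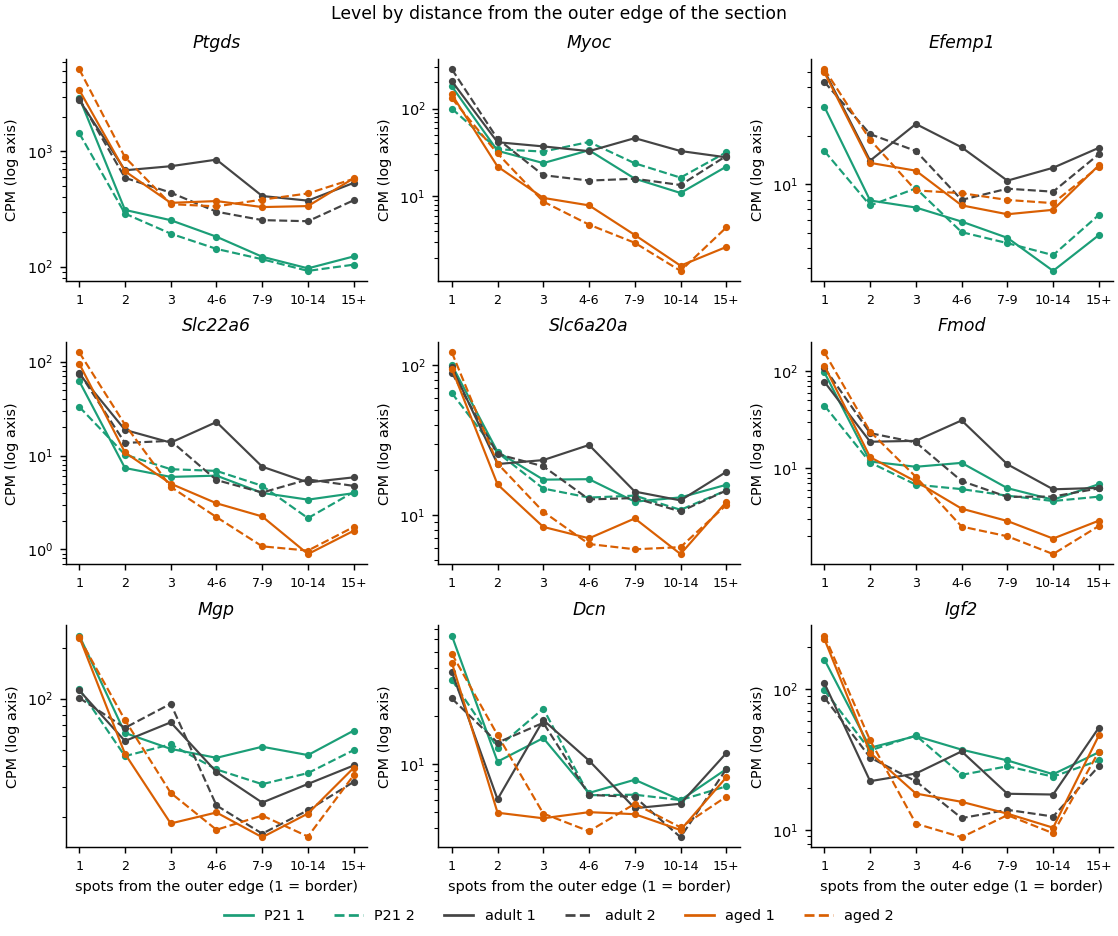
Level of each gene (CPM, log axis) against distance from the outer edge in spots, with 1 line per section (green P21, grey adult, orange aged; solid section 1, dashed section 2). All genes are highest at the border, and the orange lines fall furthest for Myoc, Slc22a6 and Fmod.

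How the genes differed with age was asked separately at the border and inside, by edgeR on the UMIs of the 6 sections with age as the only term. At the border, 0 of the 9 genes were called in P21 vs. adult by edgeR or by DESeq2. There edgeR called 2.04% of 12488 genes (1.23% higher, 0.809% lower). In edgeR 5 of the 9 had an unadjusted p under 0.05, a level whose share over all genes was not counted. Inside, 4 of the 9 were called in P21 vs. adult, 3 lower and 1 higher, where 7.91% of 17674 genes were called, 2.43% lower and 5.48% higher. The 3 lower genes were Ptgds, Efemp1 and Slc22a6, and the higher one was Mgp. The median log2 fold change of the 9 was −0.37 at the border and −0.19 inside, against 0.01 over all genes in both.

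In aged vs. adult, 3 of the 9 were called at the border, Mgp and Igf2 higher and Myoc lower, where 12.6% of all genes were called (7.21% higher, 5.35% lower). Inside, 5 of the 9 were called and all were lower (Myoc, Slc22a6, Fmod, Slc6a20a and Dcn), where 26.7% of all genes were called, 22.3% higher and 4.37% lower. This background rests largely on genes seen in few spots. With only genes seen in at least 10% of all spots tested, 1001 genes were called inside instead of 4722. Inside the aged sections 19353 and 19356 genes were detected, against 17218 and 16962 inside the adult sections. The median of the 9 was 0.53 at the border, against 0.00 over all genes, and −0.60 inside, against 0.04. Over whole sections 6 were lower in aged mice (these 5 and Efemp1) where 4.68% of 18104 genes were called lower and 28.4% in either direction. At P21, 4 were lower over whole sections (Ptgds, Efemp1, Slc22a6 and Fmod) where 2.37% were, of 8.06% in either direction. The whole-section calls of Efemp1 and Dcn in aged mice were also lost with plain library sizes and with the 10% filter. Without adult section 1 those of Efemp1 (log2 fold change −0.46) and Dcn (−0.52) in aged mice and of Slc22a6 (−0.58) and Fmod (−0.45) at P21 were lost, and that of Fmod at P21 was also lost without P21 section 2 (−0.48).

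Plain levels that did not overlap between the ages were counted as well. At the border both aged sections lay above both adult sections for 6 of the 9 genes (Ptgds, Slc22a6, Fmod, Mgp, Dcn and Igf2), as they did for 30.1% of all genes tested, and below for 1 (Myoc), against 28.3%. Inside, both aged sections lay below both adult sections for 6 (Myoc, Efemp1, Slc22a6, Slc6a20a, Fmod and Dcn), against 25.8%, and above for 0, against 50.3%. At P21 the border was below both adults for 3 (Myoc, Efemp1 and Slc22a6), against 22.6%, and above for 1 (Mgp), against 26.1%. The P21 inside was below both adults for 3 (Ptgds, Efemp1 and Slc22a6), against 31.4%, and above for 1 (Mgp), against 32.0%.

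The excess of the border over the inside was compared between ages by a term for border and age in a model that holds each section as a block. In aged vs. adult this excess was greater for 7 of the 9 genes (Slc22a6, Fmod, Myoc, Igf2, Mgp, Slc6a20a and Dcn), where 1.31% of 15267 genes were called higher and 2.74% in either direction. It was not called for Ptgds (log2 difference 0.50, called at 0.91 without adult section 2) or Efemp1 (0.62). Markers of other cells also differed in this aged term. Called higher were 5 of 8 ependymal, 4 of 14 choroid plexus, 2 of 12 smooth muscle and mural and 1 of 11 endothelial markers. All 12 oligodendrocyte markers were called lower (median −1.89), and no neuron, astrocyte or border macrophage marker was called. The part of these shifts in the values of the 9 was not tested. In P21 vs. adult 0 of the 9 were called by edgeR or DESeq2, where edgeR called 0.111% of genes. In edgeR 2 of the 9 had an unadjusted p under 0.05, a level whose share over all genes was not counted. The log2 values of this term ran from −0.64 for Myoc to 1.29 for Ptgds, with standard errors of 0.17 to 0.37. Because sections were compared with themselves, a shift that acts alike on a whole section does not enter this term, and age and slide version still cannot be told apart in it.

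**Figure D3:**
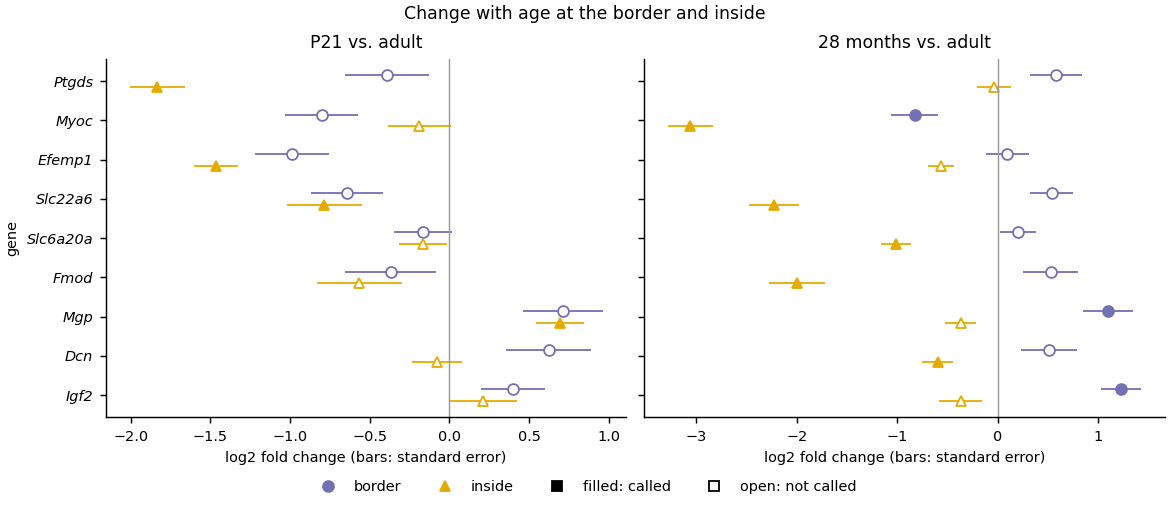
Log2 fold change of each gene in P21 vs. adult (left) and aged vs. adult (right), with the standard error from edgeR, at the border (circles) and inside (triangles); filled symbols were called. On the right most triangles lie left of 0 and most circles right of it.

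Ptgds encodes the lipocalin-type prostaglandin D synthase, which makes prostaglandin D2 and is secreted into the cerebrospinal fluid. Its border level was 2942 and 1442 CPM at P21, 2802 and 2878 in the adult and 3423 and 5187 in the aged sections. P21 section 2 was the lowest and the aged sections the highest, and P21 section 1 lay just above the adults. Neither comparison was called at the border (log2 fold change −0.39, standard error 0.26, in P21 vs. adult and 0.58, standard error 0.26, in aged vs. adult), although the second was called at 0.59 without P21 section 2. Inside, Ptgds was at 124 and 110 CPM at P21, 528 and 307 in the adult and 431 and 443 in the aged sections. Both P21 sections were well below both adult sections, with a log2 fold change of −1.83 (standard error 0.18, adjusted p = 1.87e-05, edgeR). The aged sections fell between the 2 adult sections, and their log2 fold change of −0.03 turned to 0.38 without adult section 1. The border was 23.8 and 13.1 times the inside at P21 and 5.30 to 11.7 times in the other 4 sections, and this difference between P21 and adult missed the threshold (log2 1.29, standard error 0.26, adjusted p = 0.063 in edgeR). It was called when P21 section 2 (1.66), adult section 1 (0.88), adult section 2 (1.70) or either aged section (1.28) was left out, with no filter on low counts (1.25), after thinning (1.31) and with an inside of 7 or more steps (1.27).

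Inside the tissue Ptgds varied with the markers of oligodendrocytes, the myelin-forming cells, but not at every age. Over inside spots its Pearson correlation with the summed level of the 12 oligodendrocyte markers was 0.13 and 0.03 at P21, 0.58 and 0.58 in the adult and 0.77 and 0.78 in the aged sections. These markers summed to 28038 and 30105 CPM inside at P21, 14891 and 13465 in the adult and 10656 and 10369 in the aged sections. Ptgds itself was at 124 and 110 CPM inside at P21, against 307 to 528 CPM at the other ages. The part of either level in these correlations was not tested. Over border spots the mean correlation of Ptgds with the oligodendrocyte markers was −0.03. The correlations are over spots of 1 section, which share its library and depth, and are given as a description.

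Other genes of prostaglandin synthesis and response were read from a list of 17, of which 16 were in the files. In aged vs. adult 3 of the 16 tested inside were called, all higher, against 22.3% of all genes, and 1 of the 10 tested at the border, against 7.21%. Both shares were near the background. Ptgs2, the inducible cyclooxygenase, was higher in aged sections at the border (log2 fold change 2.04, standard error 0.24) and inside (0.74, standard error 0.13). Ptgs2 was lower at P21 inside (−0.97, standard error 0.14). Against the inside, the border was higher for 4 of the 14 tested, where 9.45% of all genes were. Ptgfr, the prostaglandin F receptor (3.15), and Ptgis, prostacyclin synthase (2.13), led them.

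Slc22a6 encodes the organic anion transporter OAT1. Its border level was 62.1 and 33.1 CPM at P21, 74.2 and 76.6 in the adult and 95.3 and 126 in the aged sections. The 3 ages did not overlap, but neither comparison was called (log2 fold change −0.64, standard error 0.23, and 0.54, standard error 0.21, in edgeR), the first of which was called at −0.77 with a border of 2 rows. Inside, it was at 4.13 and 4.17 CPM at P21, 9.39 and 4.97 in the adult and 1.80 and 1.48 in the aged sections. The aged sections were the lowest, with a log2 fold change of −2.23 (standard error 0.25, adjusted p = 3.79e-05 in edgeR) that stayed called without any single section. The P21 sections lay under both adult sections, at −0.78 (standard error 0.24, adjusted p = 0.0319), a call that was lost without adult section 1 (−0.27), P21 section 1 (−0.78) or P21 section 2 (−0.79), with an inside of 7 or more steps (−0.55) and without choroid plexus and mural spots (−0.57). The border exceeded the inside by 52.9 and 84.8 times in aged sections and by 7.90 to 15.4 times in the others, and the term for this was 2.69 on the log2 scale (standard error 0.32, adjusted p = 0.000374).

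Slc6a20a encodes a proline and imino acid transporter. Its border level was 100 and 65.2 CPM at P21, 97.2 and 89.2 in the adult and 94.8 and 122 in the aged sections. The groups overlapped and no change was called. Inside, it was at 14.8 and 13.04 CPM at P21, 18.5 and 12.9 in the adult and 8.96 and 7.78 in the aged sections. The P21 and adult ranges overlapped, and both aged sections were lower than both adult sections (log2 fold change −1.01, standard error 0.15, adjusted p = 0.000255 in edgeR). The border exceeded the inside by 10.6 and 15.7 times in aged sections and by 6.90 times or less in the others, with a term of 1.17 (standard error 0.20, adjusted p = 0.00352) that was lost after thinning (1.05, adjusted p = 0.0764) and with a border of 2 rows (0.70, adjusted p = 0.0576).

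Fmod encodes fibromodulin and Dcn decorin, small leucine-rich proteoglycans that bind collagen fibrils. Fmod was at 97.0 and 44.3 CPM at the border at P21, 77.6 and 108 in the adult and 114 and 156 in the aged sections. The aged sections were the highest and P21 overlapped the adults, with no call in either comparison. Inside, Fmod was at 6.84 and 5.16 CPM at P21, 12.1 and 5.95 in the adult and 2.80 and 2.07 in the aged sections. Both aged sections were below every other section, by a log2 fold change of −2.00 against adults (standard error 0.28, adjusted p = 0.000151 in edgeR). In P21 vs. adult the inside value of −0.56 was not called, but was at −0.98 without adult section 2 and at −0.66 with an inside of 2 or more steps. The excess over the inside grew by 2.45 on the log2 scale from adult to aged sections (standard error 0.37, adjusted p = 0.00171), a call lost in DESeq2 (adjusted p = 0.0563) and after thinning to the lowest total (1.97, adjusted p = 0.0709).

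Dcn was at 63.4 and 33.6 CPM at the border at P21, 37.7 and 25.7 in the adult and 43.0 and 48.8 in the aged sections. Both aged sections exceeded both adult sections, but the log2 fold change of 0.51 (standard error 0.28) was not called. Inside, it was at 7.77 and 6.58 CPM at P21, 8.56 and 6.73 in the adult and 5.87 and 4.97 in the aged sections. The aged fall inside (−0.60, standard error 0.15, adjusted p = 0.00576 in edgeR) was close to the fold limit and was lost in 7 of 16 alternatives: without adult section 1 (−0.44) or aged section 2 (−0.45), in DESeq2 (−0.58), with plain library sizes (−0.50), with the filter on genes seen in 10% of spots (−0.50), with an inside of 7 or more steps (−0.48) and without choroid plexus and mural spots (−0.34). The term for the border, 1.09 (adjusted p = 0.0299), was lost in 9 of 17 alternatives, with values of 0.67 to 1.74 over all 17. These were DESeq2, plain library sizes, a border of 2 rows or with holes, all 3 other limits of the inside, and the fits without adult section 2 or aged section 2.

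Of 14 other genes of the small leucine-rich family, 11 were tested between border and inside and 7 were called, all higher at the border, against 9.45% of all genes, led by Omd, osteomodulin (log2 fold change 3.76), and Ogn, osteoglycin (3.60). In aged vs. adult 2 of the 7 tested at the border were called, both higher (7.21% of all genes were): Omd (2.20, standard error 0.36) and Prelp (1.09, standard error 0.14). Omd was low at the adult border, at 3.01 and 3.92 CPM against 17.6 and 14.5 in the aged sections. Inside, 4 of the 13 tested were lower in aged sections, among them Ogn (−1.69) and Ecm2 (−1.07), against 4.37% of all genes, and 3 were higher, near the background of 22.3%. At P21, Ogn was lower inside (−0.70) and Chad was higher (1.76). Chad was low inside at both ages, at 1.07 and 1.30 CPM at P21 and 0.41 and 0.27 in the adult sections.

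Myoc encodes myocilin, a secreted protein known from the drainage tissue of the eye. It was at 179 and 99.7 CPM at the border at P21, 205 and 280 in the adult and 145 and 131 in the aged sections. The adult sections were the highest, and the aged sections lay within the P21 range. The fall in aged vs. adult (log2 fold change −0.83, standard error 0.23, adjusted p = 0.0325 in edgeR) was lost in 5 of 15 alternatives: without adult section 2 (−0.58) or aged section 2 (−0.72), in DESeq2 (adjusted p = 0.192), with a replicate block (−0.84, adjusted p = 0.052) and with holes counted as border (−0.71, adjusted p = 0.0638). In P21 vs. adult the value was −0.80 (standard error 0.23, adjusted p = 0.109), and it was called at −1.29 without P21 section 1, at −0.80 without either aged section, at −0.81 with no filter on low counts and at −0.79 with a border of 2 rows. Inside, Myoc was at 19.6 and 27.6 CPM at P21, 33.6 and 20.0 in the adult and 3.55 and 3.33 in the aged sections. P21 and adult sections overlapped, whereas aged sections were 8.35-fold lower than adults in the fit (log2 fold change −3.06, standard error 0.22, adjusted p = 2.8e-06), the greatest change of the 9 genes. The aged border held 296 and 270 UMIs of Myoc and the aged inside 254 and 308, against 544 and 644 at the adult border and 1466 and 873 inside. The border thus exceeded the inside by 40.8 and 39.2 times in aged sections and by 3.61 to 14.0 times in the other 4, with a term of 2.17 (standard error 0.37, adjusted p = 0.00352) that was lost in DESeq2 (2.12, adjusted p = 0.0974).

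Efemp1 encodes fibulin-3, an extracellular glycoprotein of elastic tissue. It was at 30.2 and 16.1 CPM at the border at P21, 50.5 and 43.1 in the adult and 49.4 and 51.7 in the aged sections. The P21 sections were the lowest, at a log2 fold change of −0.99 (standard error 0.23) whose adjusted p of 0.0563 in edgeR missed the threshold. It was called at −1.55 without P21 section 1 and at −0.99 without either aged section, which enter the estimate of the spread, and with no filter on low counts, a border of 2 rows (−1.09) or holes counted as border (−1.24). Inside, it was at 4.41 and 4.96 CPM at P21, 14.5 and 11.2 in the adult and 9.17 and 9.47 in the aged sections. The 3 ages did not overlap, with P21 2.75-fold below adults (log2 fold change −1.46, standard error 0.14, adjusted p = 1.67e-05). The aged fall of −0.56 (standard error 0.13, adjusted p = 0.00275) stopped short of the fold limit, which it passed without adult section 2 (−0.74).

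Mgp encodes matrix Gla protein, an inhibitor of calcification. It was at 235 and 114 CPM at the border at P21, 112 and 101 in the adult and 231 and 228 in the aged sections. The aged sections were alike and about the level of P21 section 1, whereas P21 section 2 was close to the adults. The rise in aged vs. adult was 2.14-fold (log2 fold change 1.10, standard error 0.25, adjusted p = 0.0129 in edgeR), and it was lost without adult section 2 (1.03), in DESeq2 (adjusted p = 0.0766) and with a border of 2 rows (0.49, adjusted p = 0.109). In P21 vs. adult the border value was 0.71 (standard error 0.25, adjusted p = 0.189), called at 1.12 without P21 section 2. Inside, Mgp was at 54.7 and 40.3 CPM at P21, 34.1 and 25.1 in the adult and 26.6 and 22.6 in the aged sections. Both P21 sections exceeded both adult sections (log2 fold change 0.70, standard error 0.15, adjusted p = 0.00607), a call lost without P21 section 1 (0.45) or adult section 2 (0.50), in DESeq2 (0.69, adjusted p = 0.0525) and with an inside of 2 or more steps (0.48). The aged fall inside of −0.37 was not called, and the term for the border was 1.42 (standard error 0.17, adjusted p = 0.000374).

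Igf2 encodes insulin-like growth factor 2, a secreted growth factor. It was at 163 and 98.7 CPM at the border at P21, 111 and 87.5 in the adult and 228 and 242 in the aged sections. Both aged sections were above all others, 2.35-fold over adults (log2 fold change 1.23, standard error 0.20, adjusted p = 0.00247 in edgeR), and this call was kept without any single section. P21 and adult sections overlapped. Inside, Igf2 was at 32.3 and 27.4 CPM at P21, 33.3 and 18.7 in the adult and 25.2 and 17.8 in the aged sections. The adult range overlapped those of both other ages and no change was called, but without adult section 2 the aged value was called at −0.74 and without aged section 1 at −0.66, and the P21 value was called at 0.67 without adult section 1 and at 0.71 without choroid plexus and mural spots. The excess over the inside grew by 1.56 on the log2 scale from adult to aged sections (standard error 0.20, adjusted p = 0.00054), a call lost with holes counted as border (1.26, adjusted p = 0.0831).

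**Figure D4:**
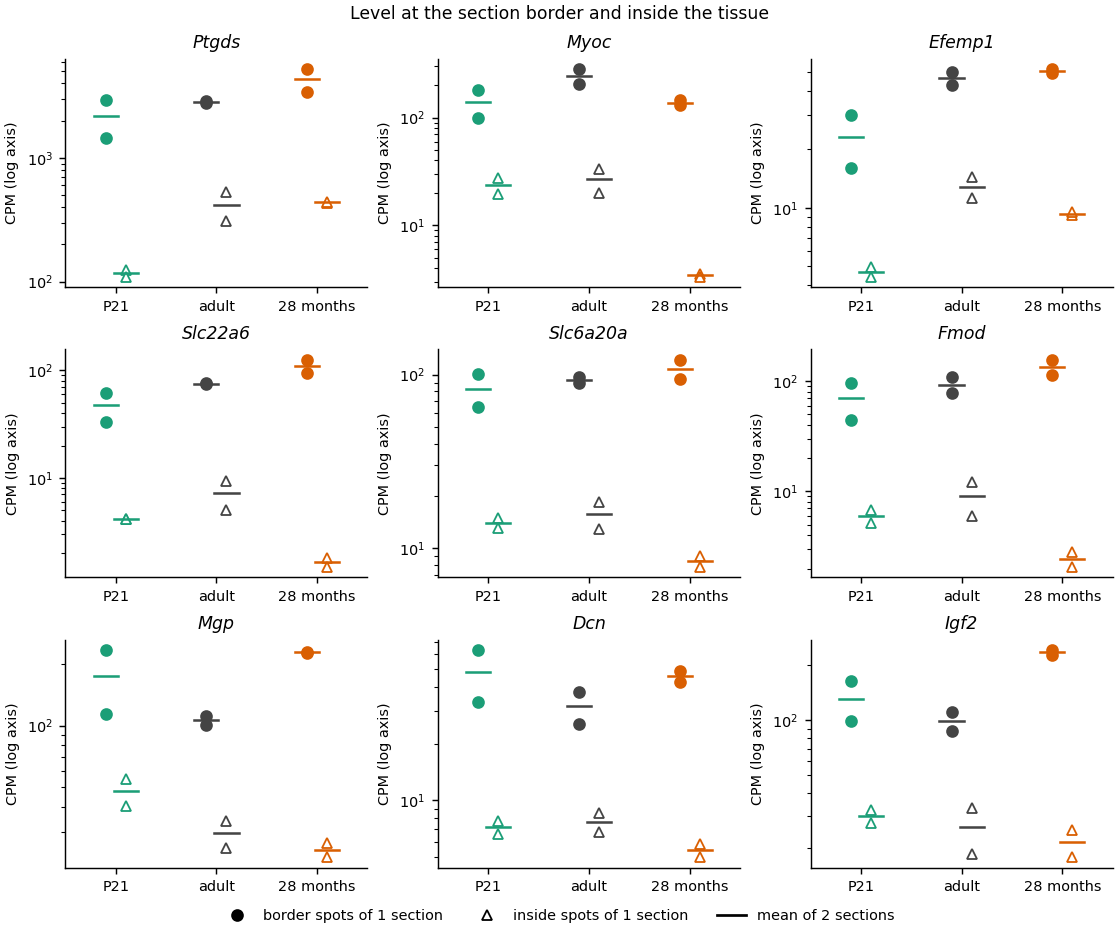
CPM (log axis) of each gene at P21, adult and 28 months, with filled circles for the border and open triangles for the inside of each section and bars at the mean of 2 sections. Border points lie above inside points of every section for all 9 genes, and the gap is widest at 28 months for Myoc, Slc22a6 and Fmod.

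The 2 P21 borders differed for every gene: section 1 was above section 2 for all 9, from 100 against 65.2 CPM for Slc6a20a to 97.0 against 44.3 CPM for Fmod. The 38 other fibroblast genes summed to 2846 and 2065 CPM in these borders and 12 smooth muscle and mural markers to 945 and 404 CPM. Erythrocyte markers also stood at 6529 and 2540 CPM, against 443 to 1128 CPM at the adult and aged borders. Their part in the spread of the P21 sections was not tested.

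Of 13 genes of the insulin-like growth factor axis other than Igf2, 12 were in the files. At the aged border 2 of the 10 tested were called, both higher (7.21% of all genes were): Igf1 (log2 fold change 1.13, standard error 0.20) and Igfbp2, a binding protein (0.75, standard error 0.16). Inside aged sections Igf1 was higher too (0.59, standard error 0.09) and Igfbp2 lower (−0.59, standard error 0.17). At the P21 border Igfbp3 (1.48) and Igfbp7 (0.97) were higher. The border was higher than the inside for 5 of the 11 tested, where 9.45% of all genes were.

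The 38 other meningeal fibroblast genes, also chosen with earlier results of these data known, were read beside the 9. Of these, 36 were higher at the border than inside, against 9.45% of all genes, and none lower, with a median log2 fold change of 2.42. Slc47a1 (4.42) and Slc22a2 (3.95), both organic cation transporters, led them. In aged vs. adult 20 of the 38 were lower inside, against 4.37% of all genes, and 1 was higher, against 22.3%, with a median of −0.59. The lower ones were led by Col3a1 (−1.90), a collagen, and Ogn (−1.69), and the higher one was Spp1, osteopontin (0.71). As said above, the background of calls inside aged sections rests largely on genes seen in few spots. At the aged border 3 were higher, near the background of 7.21%, and none lower (median 0.24), among them Aldh1a2, the enzyme of retinoic acid synthesis (1.06), and Igfbp2. The border excess was greater in aged sections for 14 of the 38, against 1.31% of all genes.

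At the P21 border 4 of the 38 were higher, against 1.23% of all genes, and none lower: the collagens Col3a1 (log2 fold change 3.05, standard error 0.32), Col1a1 and Col1a2, and Mfap4, a microfibril protein (2.50, standard error 0.33). Inside, Col3a1 (2.34) and Col1a1 (1.60) led 3 higher genes of the 38, near the background of 5.48%. Another 5 of the 38 were lower, against 2.43% of all genes, among them the transporters Slc47a1 (−1.55) and Slc13a4 (−0.79). Of 9 genes for retinoic acid synthesis and binding, 4 were higher at the border than inside, against 9.45% of all genes. Among them were Aldh1a2 (3.54) and Crabp2 (3.21), a carrier of retinoic acid. Inside, Stra6, a retinol carrier receptor, was lower at P21 (−1.19), and 3 of the 9 were lower in aged sections (4.37% of all genes were), including Crabp2 (−0.83).

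Markers of neighbouring cells moved too. Inside aged sections 6 of 12 smooth muscle and mural markers were lower and none higher, among them Myh11 (log2 fold change −1.48) and Tagln (−1.17), and their summed level was 117 and 123 CPM against 168 and 141 in adults. Endothelial markers had 5 of 11 lower inside, and 4.37% of all genes were. At the aged border 3 of 6 tested markers of border macrophages were higher, including Cd163 (2.06) and Cd209f (2.01), where 7.21% of all genes were. Both were low at the adult border, with Cd163 at 3.77 and 2.18 CPM and Cd209f at 3.39 and 2.18 CPM. Mrc1 (0.27), Pf4 (0.63) and Cbr2 (1.12) were not called. Of 12 oligodendrocyte markers, 11 were lower at the aged border, where 5.35% of all genes were. Ependymal markers were higher there for 5 of 8 and choroid plexus markers for 4 of 14, against 7.21% of all genes. The 5 ependymal markers called were low at the adult border, at 0.44 to 7.16 CPM. The summed choroid plexus level at the border was high in aged section 1 only. It was 8277 and 455 CPM in the aged sections, against 1347 and 923 in the adult sections. The part of these cells in the changes of the 9 genes was not tested. In an alternative, inside spots in the top 5% for choroid plexus or mural markers were left out. There the aged falls inside of Myoc, Slc22a6, Fmod and Slc6a20a were called again, and that of Dcn (−0.34) was not. The spots kept can still hold such cells, so this does not test their part.

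Over border spots the genes went together. The mean Pearson correlation over the 6 sections was highest for Ptgds with Fmod (0.71), Ptgds with Slc22a6 (0.69) and Ptgds with Igf2 (0.69), and lowest for Myoc with Efemp1 (0.26) and Myoc with Mgp (0.26). Over inside spots every pair was lower, at most 0.27 for Dcn with Igf2. All 9 genes also had lower levels inside, and the part of low counts in these correlations was not tested. Against marker lists at the border, each of the 9 except Mgp had its highest mean correlation with the 38 other fibroblast genes, from 0.46 for Efemp1 to 0.79 for Ptgds. Mgp was at 0.59 with the smooth muscle and mural markers and at 0.57 with the fibroblast genes. Myoc had 0.42 with astrocyte markers at the border, more than any other of the 9, and all 9 were negative with neuron markers. Inside, Igf2 was at 0.31 with choroid plexus markers and at 0.30 with the fibroblast genes. These values describe spots within a section, whose counts share depth and neighbours.

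**Figure D5:**
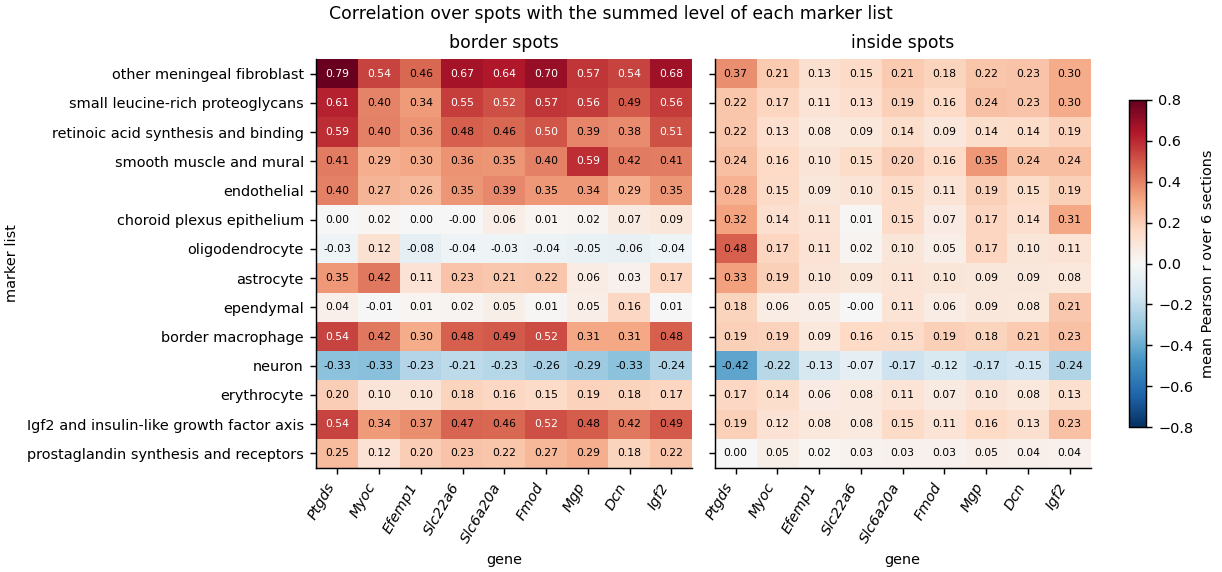
Mean Pearson correlation over 6 sections between each gene (columns) and the summed level of each marker list (rows), over border spots (left) and inside spots (right). The fibroblast row is strong at the border, and inside the strongest cell is Ptgds with the oligodendrocyte markers at 0.48.

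The genes whose pattern over all spots was most like each of the 9 were sought among 9689 genes with at least 500 UMIs in every section, by the mean correlation over 6 sections. Efemp1, Slc22a6, Fmod and Dcn fell below this limit in P21 section 2 and so could not be named as a like gene. Ptgds was the most like gene for Myoc (0.46), Efemp1 (0.28), Slc22a6 (0.45) and Fmod (0.47). Igf2 was most like Slc6a20a (0.42), and Col1a2, a type I collagen chain, most like Dcn (0.40). Pcolce, which aids collagen processing, was most like Igf2 (0.47). Mgp had the smooth muscle genes Acta2 (0.47) and Tagln (0.46) at the head, and Ptgds had Apoe (0.50) and Gfap (0.48), genes of astrocytes, near the head. Gfap was also second for Myoc (0.39), ahead of Col1a2 (0.37). Col1a2 was among the first 3 for each of the 9 but Ptgds.

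The deposited spatial scores gave the same genes from another angle. Moran's I, a score of how alike neighbouring spots are, was 0.29 to 0.54 for Ptgds over the 6 sections, which placed it at rank 116 to 359 among the 17185 to 19363 genes listed per section. Myoc followed with 0.18 to 0.37. Efemp1 was lowest with 0.01 to 0.10 and ranks of 2092 to 8807, while the median of all genes was 0.01 to 0.03. Of all kept spots, 90.1% held a UMI of Ptgds, 36.8% of Mgp, 19.8% of Myoc and 8.58% of Slc22a6.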

How the data were processed

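Male C57BL/6J brain hemisections, 2 per age, were measured by Visium on FFPE tissue. The deposited values are raw counts of UMIs, which the authors made with Space Ranger 2.0.0 (P21, adult) or 3.1.1 (aged), per the file headers, on mm10, without normalization. The deposited Moran's I score per gene was used as given.

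Spots under 250 genes or 500 UMIs were left out, as in the study's methods. Depth ran from 42422997 to 106783660 UMIs per section. Sections, not spots, are the replicates, 2 per age, and standard errors are given with many values in place of intervals. Spots were ranked by steps over 6 neighbours from array positions outside the tissue. Step 1 was the border and 4 or more the inside. UMIs were summed per section and class, and edgeR 4.0.16 (R 4.3.3; filterByExpr, TMM, glmQLFit, glmQLFTest) compared each age with adults on 6 sums, border with inside on 12 sums with section as a block, and both together. Calls needed an adjusted p under 0.05 (Benjamini-Hochberg over all genes) and a fold change over 1.5. CPM values carry no TMM factor. Correlations used the natural log of 1 plus UMIs per 10000 in each spot. The study's filter on genes seen in 10% of spots was an alternative, since genes of the border lie in few spots. Other alternatives were DESeq2 1.42.0, plain library sizes, no filter, thinning, other border and inside limits, a replicate block, and leaving out each section.

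The members and lists were chosen with earlier results of these data known. Named genes are the 9 members, the 3 genes most like each (1 is not reported here), and from each list up to 2 called genes with the greatest and least change in a comparison; other list genes in the text were chosen after their values were seen. The lists hold other meningeal fibroblast, small leucine-rich proteoglycan, retinoic acid, smooth muscle and mural, endothelial, choroid plexus, oligodendrocyte, astrocyte, ependymal, border macrophage, neuron, erythrocyte, insulin-like growth factor and prostaglandin genes; some genes are in 2 lists. The fit was tested on simulated data. None of the aged spot barcodes occurs in another age. Images, the authors' regions and their p-values were not used here.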

Additional observations from a re-analysis of the deposited data

Results flagged for a closer look

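The excess of the border over the inside differed between aged and adult sections by a tested term for 7 genes. On the log2 scale it was greater in aged sections by 2.69 for Slc22a6 (adjusted p = 0.000374 in edgeR), 2.45 for Fmod (adjusted p = 0.00171) and 2.17 for Myoc (adjusted p = 0.00352). For these 3 the level inside was lower in aged sections, while the border was not called for Slc22a6 and Fmod and was lower for Myoc, a call lost in 5 of 15 alternatives. The term was lost in DESeq2 for Fmod and Myoc and after thinning for Fmod. It was greater by 1.56 for Igf2 (adjusted p = 0.00054) and 1.42 for Mgp (adjusted p = 0.000374), both of which were higher at the aged border and not called inside. The term of Igf2 was lost with holes counted as border (1.26, adjusted p = 0.0831), and the border call of Mgp was lost in 3 of 15 alternatives. It was greater by 1.17 for Slc6a20a (adjusted p = 0.00352) and 1.09 for Dcn (adjusted p = 0.0299), which were lower inside. The term of Dcn was lost in 9 of 17 alternatives and its fall inside in 7 of 16, and the term of Slc6a20a was lost after thinning (1.05, adjusted p = 0.0764) and with a border of 2 rows (0.70, adjusted p = 0.0576). In these terms, too, age cannot be told apart from the slide version. Markers of other cells differed in the same term, higher for 5 of 8 ependymal and 4 of 14 choroid plexus markers and lower for 12 of 12 oligodendrocyte markers. Over all 15267 genes tested in this term, 1.31% were called higher and 2.74% in either direction.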

How the results depend on the processing

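The 9 genes stayed higher at the border than inside under each alternative that tested them. With 1 section left out, the number of the 9 called ranged from 4 to 5 (P21) and 4 to 6 (aged) over whole sections, 0 to 2 and 1 to 4 at the border, 2 to 4 and 4 to 7 inside, and 1 to 2 and 6 to 7 for the border-by-age terms. At the P21 border 2 genes were called with no filter on low counts, 3 with a border of 2 rows and 1 with holes counted as border, against 0. At the aged border DESeq2 called 1 against 3, and for the aged term 4 against 7. With the filter on genes seen in 10% of spots, 3 were called in aged mice both over whole sections and inside. Slc22a6, seen in 8.58% of spots, was not tested under this filter. For the P21 term, 2 were called with no filter, 1 after thinning and 1 with an inside of 7 or more steps.

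Signs turned only for values that were not called. Ptgds inside aged sections went from −0.03 to 0.07 with plain library sizes, 0.06 with the 10% filter, 0.01 with the replicate block, 0.19 with an inside of 7 or more steps and 0.19 without choroid plexus and mural spots. With a border of 2 rows, Efemp1 was at −0.18 and Slc6a20a at −0.25 in aged vs. adult. Without choroid plexus and mural spots, Slc6a20a was at 0.05 and Dcn at 0.04 inside in P21 vs. adult. With 1 section left out, values crossed 0 at the P21 border for Igf2 (−0.02 to 0.69), Ptgds (−0.99 to 0.03), Slc6a20a (−0.52 to 0.08) and Fmod (−1.07 to 0.04), at the aged border for Efemp1 (−0.0043 to 0.21), inside at P21 for Myoc (−0.51 to 0.22), Slc6a20a (−0.39 to 0.10), Fmod (−0.98 to 0.02), Dcn (−0.23 to 0.09) and Igf2 (−0.14 to 0.67), and inside in aged mice for Ptgds (−0.38 to 0.38) and Igf2 (−0.74 to 0.08). The cause was not tested.

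Over all genes, the 10% filter lowered the calls to 592 of 1460 (P21) and 1010 of 5148 (aged) over whole sections, 623 of 1398 and 1001 of 4722 inside, and 848 of 1569 for border vs. inside, as fewer genes were tested. At the P21 border calls ranged from 65 (without P21 section 1) to 507 (border of 2 rows) around 255, for the P21 term from 1 (holes) to 257 (without adult section 1) around 17, and for the aged term from 105 (holes) to 686 (no filter) around 419. At the aged border DESeq2 called 909 and the fit without adult section 2 974, against 1569. Without P21 section 2, 949 genes were called over whole sections at P21, and without P21 section 1, 905 inside. Thinning gave 3079 inside aged sections, and a border of 2 rows 1017 for border vs. inside. Plain library sizes moved the median of all genes in aged vs. adult from 0.04 to 0.15 over whole sections and 0.14 inside. Replicate numbers did not pair the samples (correlations of deviations 0.02, −0.04 and −0.17), and with the replicate block 4 and 6 of the 9 were called over whole sections, 0 and 2 at the border and 4 and 5 inside.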
